A study of Homo sapiens with 12 samples.

Results

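The AP-1 transcription factors followed here were FOS, FOSB, FOSL1, FOSL2, JUN, JUNB, JUND, ATF3, BATF3 and MAFF. They were matched by gene symbol, from a list drawn up with earlier results of these data known, and were 10 of the 62069 genes in the table. All 10 passed the filter on low counts, as did 15284 genes in total, and each stood above its cutoff of 0.283 CPM (counts scaled to a common library size) in 12 of 12 libraries. The RNA-seq libraries came from IMR90 ER:RAS, a line of human lung fibroblasts in which RAS is joined to an estrogen receptor domain. Adding 4-hydroxytamoxifen (4OHT) switches RAS signalling on and drives oncogene-induced senescence (OIS). The 4 groups held 3 libraries each. The non-induced group got no 4OHT, the induced group got 100 nM 4OHT, and the groups called induced + shXPO7_3 and induced + shXPO7_5 got 100 nM 4OHT and a short hairpin RNA against XPO7, a nuclear transport receptor. All groups shared the ER:RAS line, which the study also transduced with a control vector where no XPO7 hairpin was used. The labels place all libraries at day 5, and give 7 days of growth with new medium on day 4. Whether replicates were separate cultures is stated neither in the labels nor in the methods, and the p-values therefore reflect only library-to-library spread, which may be technical.

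AP-1 is a pair of basic leucine zipper (bZIP) proteins joined along their zippers and bound across DNA, most often a FOS family protein with a JUN family protein. FOS proteins cannot pair among themselves and need a JUN partner, while JUN proteins can pair with each other. FOS, FOSB, JUNB and ATF3 are textbook immediate-early genes, switched on within minutes by RAS, ERK and stress kinases, whereas FOSL1 (FRA1), FOSL2 (FRA2) and JUND have slower or steadier expression. In senescent fibroblasts AP-1 is known for opening and holding the enhancers of secreted factors. Cells of a bulk sample are measured together, so fewer cells that express a gene and less RNA per cell cannot be told apart.

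Total counts ran from 28534141 to 60397769 per library. All 8 fibroblast markers were expressed, from LUM at 33.4 to 94 CPM up to COL1A1 at 6400 to 10500 CPM, and DCN ran from 74.3 to 1030 CPM. Their summed level was 24000 to 27900 CPM in the non-induced libraries and 16700 to 21800 CPM in the libraries with 4OHT. KRT5, KRT14, PECAM1, CDH5 and CD3E were at 0 in all 12 libraries. The summed markers reached at most 1.24 CPM for epithelial cells, 4.17 CPM for endothelial cells (nearly all VWF) and 0.198 CPM for leukocytes. XPO7 itself fell from 137 ± 8.81 CPM in the induced group to 27.7 ± 1.14 CPM under shXPO7_3 and 52.2 ± 1.62 CPM under shXPO7_5 (mean ± SD, n = 3 each). The 9 genes checked were senescence and proliferation genes together with HRAS and XPO7. Of these, 8 changed in OIS (adjusted p under 0.05 in edgeR), as did 50.9% of all genes tested. HRAS was among the 8 and XPO7 was not. The list was drawn up with earlier results of these data known, and CDKN1A, named below, was not among its largest changes. The cell-cycle inhibitors CDKN1A and CDKN2B rose by 1.19 and 4.48 on the log2 scale, and the proliferation marker MKI67 fell by 3.30.

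AP-1 genes are known to be under the control of bZIP proteins, their own products among them, so the stretches of their promoters that hold bZIP motifs are shown. RefSeq promoters, on GRCh38.p14, were found for 8 of the 10 genes, and FOSL1 and BATF3 had no entry. ATF3 and MAFF had a pair of entries each, so 10 windows of the 250 bases before the start were searched on both strands. The motif TGACG was present for 7 of the 8 genes, where 21.2% of 35116 promoters hold it. The cAMP-response element TGACGTCA, which contains TGACG, was present for JUND and MAFF (1.65% of promoters). TGACATCA was present for JUN and ATF3 (2.37% of promoters). For ATF3 and MAFF the motifs lay only in the more upstream window of the pair, and starts without an entry were not searched. The AP-1 site TGANTCA (6.57% of promoters) and the CArG box of serum response factor (1.16% of promoters) were found for 0 of 8 genes in this window. The stretches below run 5′ to 3′ on the strand of the gene, and capitals mark TGACG, its reverse complement, TGACGTCA or TGACATCA. Except for JUN and MAFF they hold no exon base of GENCODE release 29, although that release lets FOSL2 start upstream of its stretch. For JUN and MAFF, where it puts an exon over the window, only the bases around the motif are given.
FOS: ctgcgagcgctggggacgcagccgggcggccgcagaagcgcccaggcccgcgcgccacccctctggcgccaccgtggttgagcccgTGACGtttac
FOSB: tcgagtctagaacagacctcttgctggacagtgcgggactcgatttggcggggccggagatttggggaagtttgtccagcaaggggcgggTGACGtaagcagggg
JUNB: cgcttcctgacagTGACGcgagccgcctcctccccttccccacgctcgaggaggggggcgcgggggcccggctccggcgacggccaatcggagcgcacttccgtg
MAFF: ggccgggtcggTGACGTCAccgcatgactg
JUN: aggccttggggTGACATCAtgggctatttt
ATF3: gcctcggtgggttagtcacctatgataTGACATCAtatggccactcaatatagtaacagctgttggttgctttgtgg
JUND: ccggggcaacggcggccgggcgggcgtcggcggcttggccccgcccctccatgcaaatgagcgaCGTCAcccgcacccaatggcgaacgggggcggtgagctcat
FOSL2: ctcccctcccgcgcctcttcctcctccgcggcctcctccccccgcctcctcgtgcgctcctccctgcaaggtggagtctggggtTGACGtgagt

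The coordinates on GRCh38.p14 are chr14:75278678-75278773 for FOS, chr19:45467846-45467950 for FOSB, chr19:12791336-12791440 for JUNB and chr22:38201929-38201958 for MAFF, all on the plus strand. Those of the others are chr1:58784096-58784125 on the minus strand for JUN, chr1:212565257-212565333 on the plus strand for ATF3, chr19:18281668-18281772 on the minus strand for JUND and chr2:28392708-28392801 on the plus strand for FOSL2. Counted from the RefSeq start, the motif begins at -64 in FOS, -60 in FOSB, -137 in JUNB, -54 in MAFF, -67 in JUN and -123 in ATF3. JUND holds TGACGTCA at -200, outside the stretch shown, and the reverse complement of TGACG at -86. FOSL2 holds TGACG at -66. Outside the stretches shown, FOSL2 also holds the reverse complement of TGACG at -201, and JUN holds TGACG at -123. The genes with a motif in this window differed in how they behaved in OIS, as the values below show: FOS, FOSB, JUN, JUNB and MAFF rose, FOSL2 fell, and JUND and ATF3 were not called.

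Induction of RAS changed the make-up of AP-1 transcripts in both directions. Between induced and non-induced libraries, 8 of the 10 genes were called at an adjusted p under 0.05 (edgeR's quasi-likelihood test, adjusted by Benjamini-Hochberg over all genes tested), where 50.9% of all genes tested were called. Of these, 5 were higher (24.8% of all genes) and 3 were lower (26.1% of all genes). With upper-quartile in place of TMM scaling, 7505 genes were called, 2872 of them higher, in place of 7777 and 3793. FOS, FOSB, JUNB and MAFF rose between 2.63-fold and 4.13-fold, JUN rose slightly, and FOSL1, FOSL2 and BATF3 fell between 2.12-fold and 3.90-fold. The median log2 fold change of the 10 genes was 0.24, beside -0.01 over all genes tested.

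**Figure D1:**
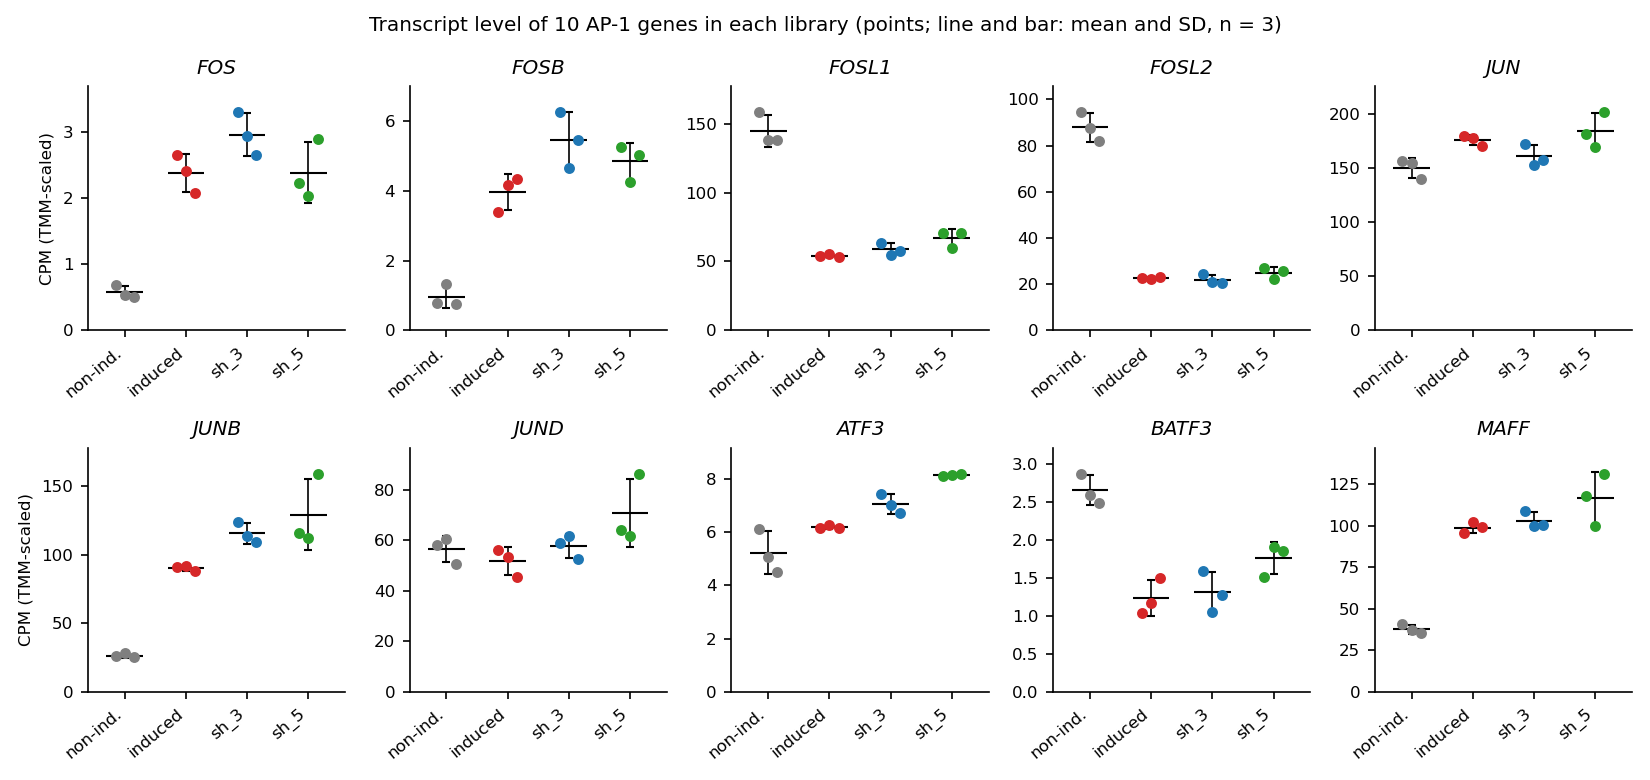
Level of each AP-1 gene in CPM (vertical axis, from 0, a scale of its own per gene) in the non-induced, induced, shXPO7_3 (sh_3) and shXPO7_5 (sh_5) libraries. Points are libraries, the line is the mean and the bar the SD of 3 libraries; FOS, FOSB, JUNB and MAFF stand higher and FOSL1, FOSL2 and BATF3 lower in all libraries with 4OHT than in the non-induced ones.

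FOS (ENSG00000170345, chromosome 14, 75278774 to 75282230, plus strand, in GENCODE release 29 on GRCh38, as for all genes below) encodes the founding member of the FOS family. It was at 0.680, 0.534 and 0.510 CPM in the non-induced libraries and at 2.65, 2.41 and 2.08 CPM in the induced ones. Its counts were low, 18 to 22 per non-induced and 68 to 103 per induced library, but the groups stood clear of each other. FOS rose by 2.05 on the log2 scale (standard error 0.196, adjusted p = 3e-06, edgeR). FOSB (ENSG00000125740, chromosome 19, 45467995 to 45475179, plus strand) encodes a close relative that also comes in a shortened form. FOSB was at 0.773, 1.34 and 0.765 CPM without 4OHT and at 3.39, 4.18 and 4.34 CPM with it, again without overlap. It rose by 2.03 on the log2 scale (standard error 0.211, adjusted p = 6.22e-06, edgeR). An intron of FOSB lies across from ERCC1, which had 60560 counts over all libraries where FOSB had 1751, and no exon of the pair overlaps.

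The other FOS family genes moved the opposite way and started from a much higher level. FOSL1 (ENSG00000175592, chromosome 11, 65892049 to 65900573, minus strand) encodes FRA1, which lacks the strong activation domain of FOS. It fell from 158, 138 and 138 CPM in the non-induced libraries to 54.1, 55.4 and 53.2 CPM in the induced ones. The induced libraries lay within a narrow band far below the lowest non-induced one. FOSL1 changed by -1.42 on the log2 scale (standard error 0.0896, adjusted p = 6.56e-08, edgeR). FOSL2 (ENSG00000075426, chromosome 2, 28392448 to 28417312, plus strand) encodes FRA2. It had the largest fall of the 10 genes, from 94.4, 87.7 and 81.8 CPM to 22.6, 22.2 and 22.9 CPM. The log2 fold change of FOSL2 was -1.96 (standard error 0.0938, adjusted p = 4.96e-09, edgeR).

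The JUN family genes, whose proteins partner the FOS proteins, did not move together. JUNB (ENSG00000171223, chromosome 19, 12791496 to 12793315, plus strand) encodes a JUN protein that is often a weaker activator than JUN. It rose from 26.0, 28.0 and 25.0 CPM in the non-induced libraries to 91.2, 92.0 and 87.8 CPM in the induced ones. No induced library came near a non-induced one. JUNB rose by 1.78 on the log2 scale (standard error 0.121, adjusted p = 1.3e-07, edgeR). Exons of JUNB overlap those of HOOK2 on the opposite strand, and the strand setting of the counting is not given in the sources used here. HOOK2 had 3123 counts over all libraries where JUNB had 40878.

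JUN (ENSG00000177606, chromosome 1, 58780788 to 58784327, minus strand), the founding member of its family, was high in all groups. It was at 157, 155 and 140.0 CPM without 4OHT and at 180.2, 178 and 171 CPM in the induced libraries. The groups did not overlap, but the difference was small. JUN rose by 0.23 on the log2 scale (standard error 0.0778, adjusted p = 0.0269, edgeR), and it lost the call in 5 of 15 alternatives, with 0.13 under upper-quartile scaling (adjusted p = 0.287, edgeR). JUND (ENSG00000130522, chromosome 19, 18279760 to 18281622, minus strand), usually the steadiest of the family, was at 58.0, 60.7 and 50.6 CPM without 4OHT and at 56.2, 53.5 and 45.6 CPM in the induced libraries. These ranges overlapped. Its log2 fold change of -0.13 had a 95% confidence interval from -0.41 to 0.16 (adjusted p = 0.453, edgeR).

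Of the remaining bZIP genes, MAFF rose, BATF3 fell and ATF3 was not called. MAFF (ENSG00000185022, chromosome 22, 38200767 to 38216511, plus strand) encodes a small MAF protein without an activation domain. It was at 40.7, 37.3 and 35.2 CPM in the non-induced libraries and at 95.7, 102 and 99.2 CPM in the induced ones, which were all far higher. MAFF rose by 1.39 on the log2 scale (standard error 0.0982, adjusted p = 1.8e-07, edgeR). BATF3 (ENSG00000123685, chromosome 1, 212686418 to 212699985, minus strand), known for its part in dendritic cells, encodes a short bZIP protein that pairs with JUN proteins. It was low, with 2.87, 2.60 and 2.49 CPM without 4OHT and 1.04, 1.17 and 1.49 CPM in the induced libraries. The log2 fold change of BATF3 was -1.09 (standard error 0.180, adjusted p = 0.000287, edgeR).

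ATF3 (ENSG00000162772, chromosome 1, 212565334 to 212620777, plus strand) encodes a stress-induced factor that represses as a pair with itself. It stood at 6.12, 5.05 and 4.51 CPM in the non-induced libraries and at 6.15, 6.27 and 6.15 CPM in the induced ones. The induced libraries were barely above the highest non-induced one. The log2 fold change was 0.25 (standard error 0.107, adjusted p = 0.0723, edgeR). ATF3 was called in 3 of 15 alternatives, among them the fit without non-induced replicate T (0.37, adjusted p = 0.00867, edgeR; range over all alternatives 0.00128 to 0.351). For each gene whose groups did not overlap, an exact two-sided permutation test gave p = 0.1, the smallest that 3 libraries against 3 allow. How many of all genes tested had groups without overlap was not counted, here or for the hairpins. At an unadjusted p under 0.05 in edgeR there were 9 AP-1 genes in OIS, beside 57.1% of all genes tested.

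**Figure D2:**
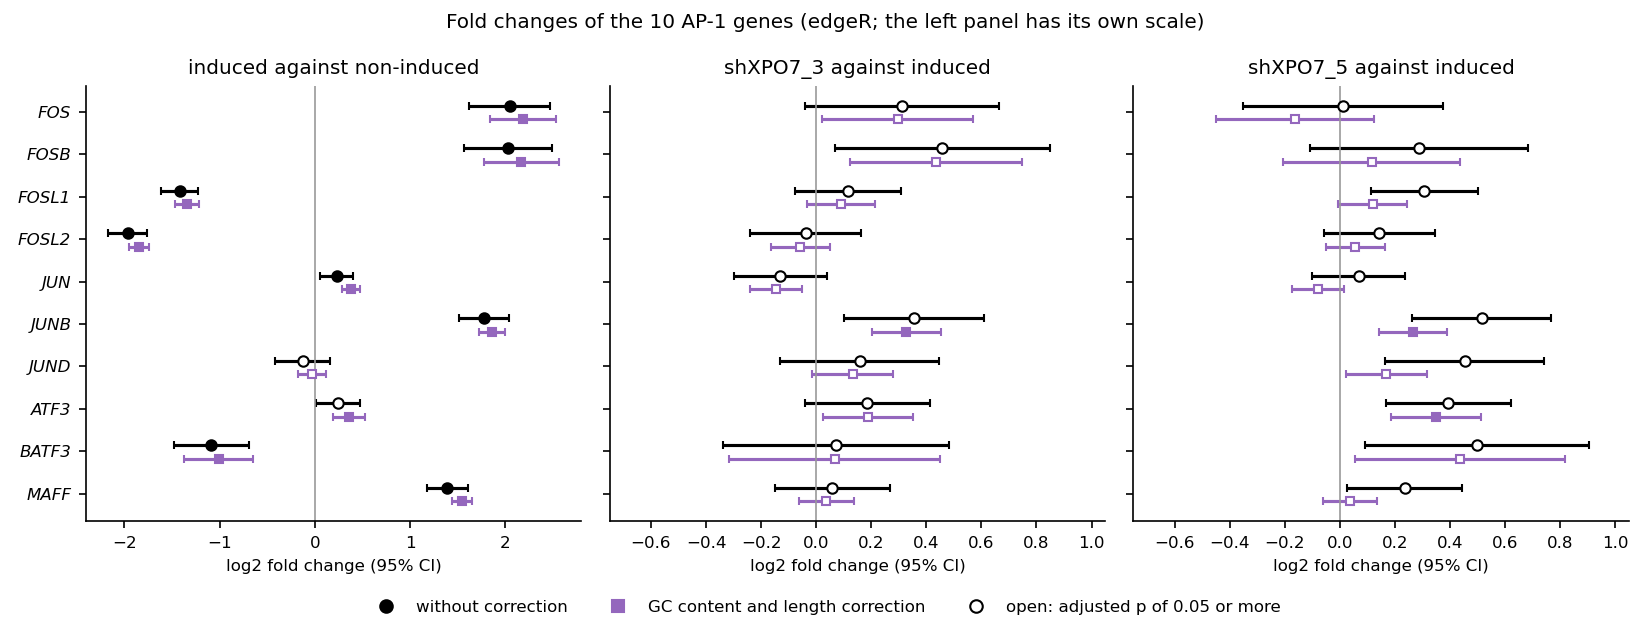
Log2 fold change of each AP-1 gene with its 95% confidence interval (horizontal axis) in OIS and with each XPO7 hairpin against the induced group. Black circles are the fit without and purple squares that with the GC content and length correction, filled where the adjusted p was under 0.05; in the hairpin panels the filled squares are JUNB (0.33 and 0.26) and, with shXPO7_5, ATF3 (0.35).

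Per kilobase of exon, which allows levels of different genes to be compared, the FOS family shrank while the JUN family grew. The summed level of the FOS family genes fell from 89.4 ± 7.01 CPM per kb (SD, n = 3) in the non-induced to 33.3 ± 0.58 CPM per kb (SD, n = 3) in the induced group. That of the JUN family genes went from 87.3 ± 5.99 to 127 ± 5.49 CPM per kb (SD, n = 3). The ratio of JUN to FOS family transcripts was 0.920, 1.07 and 0.949 in the non-induced libraries and 3.95, 3.82 and 3.69 in the induced ones. No library of one group came near the other (exact permutation tests cannot go below p = 0.1 here). With hairpins it was 3.76 to 4.12 for shXPO7_3 and 3.50 to 4.45 for shXPO7_5, ranges that overlapped with the induced libraries.

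Within the FOS family FOSL1 held nearly the same share in all groups, 85.9% ± 0.51 (SD, n = 3) of the summed level in the non-induced and 86.2% ± 0.28 (SD, n = 3) in the induced group. FOSL2 went from 13.8% ± 0.443 to 9.46% ± 0.321 (SD, n = 3), while FOS went from 0.198% ± 0.0156 to 2.20% ± 0.254 (SD, n = 3). FOSB went from 0.195% ± 0.0743 to 2.15% ± 0.280 (SD, n = 3). Although FOS and FOSB rose most in fold, they remained a small part of the FOS family transcripts. With the longest transcript in place of all exons as the length, the induced share of FOS was 2.90% and that of FOSL1 85.5%.

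Within the JUN family the share of JUNB went from 16.6% ± 0.604 to 39.0% ± 0.83 (SD, n = 3) on induction. That of JUN went from 48.7% ± 0.892 to 39.2% ± 0.652 (SD, n = 3), and that of JUND from 34.7% ± 0.867 to 21.8% ± 1.44 (SD, n = 3). In the induced libraries JUN and JUNB transcripts were thus about equal per length. With shXPO7_3 and shXPO7_5 the share of JUNB was 45.3% ± 0.457 and 43.8% ± 1.72 (SD, n = 3 each). JUN then held 32.5% ± 1.21 and 32.7% ± 2.41 (SD, n = 3 each). The JUNB share lay between 38.2% and 39.9% in the induced libraries and between 42.5% and 45.8% over the hairpin libraries, so these ranges did not overlap.

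**Figure D3:**
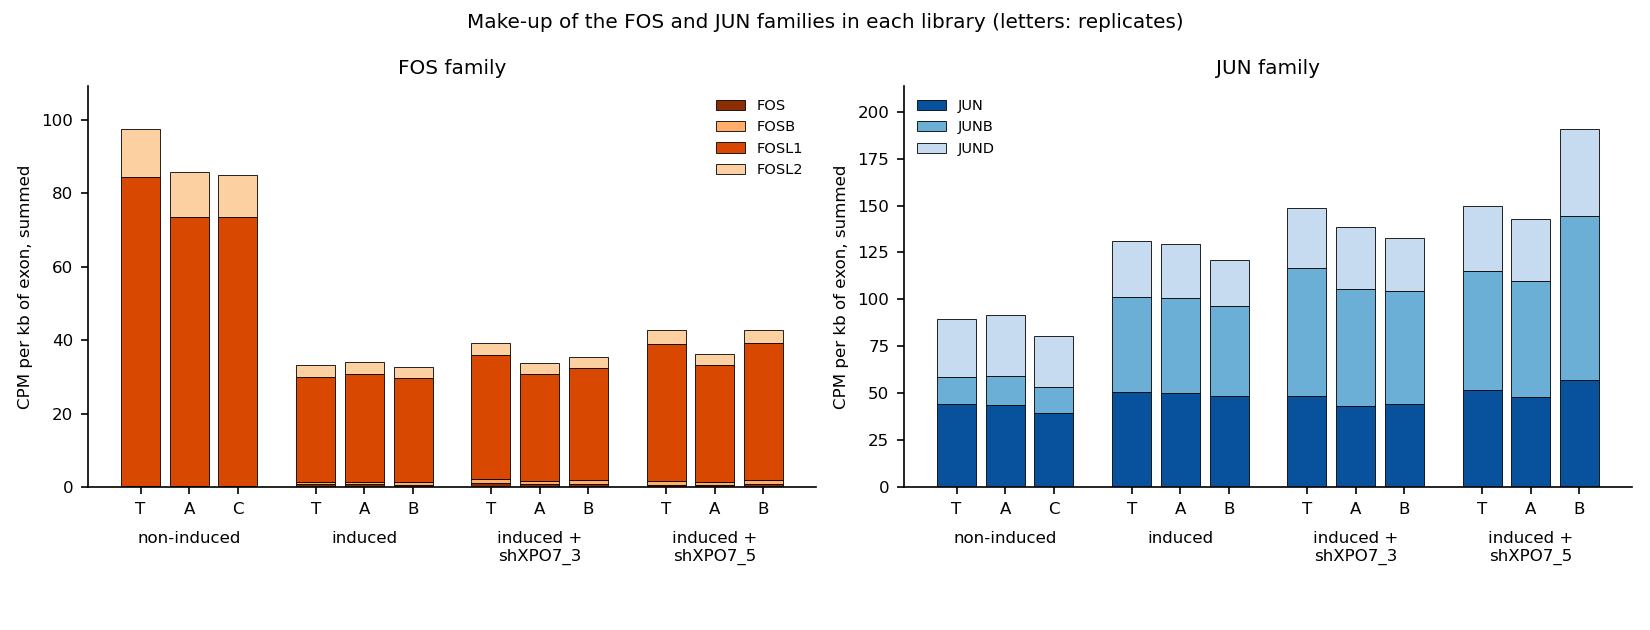
Stacked levels in CPM per kb of exon (vertical axis, from 0) of the 4 FOS family genes and the 3 JUN family genes in each of the 12 libraries. The FOS family bars stand at 32.8 to 42.8 in the libraries with 4OHT, against 84.8 to 97.4 without, and are mostly FOSL1, while the JUNB part of the JUN family bars grows; shXPO7_5 replicate B has the tallest JUN family bar.

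The order of the 10 genes by level per kb changed accordingly. In the non-induced group it ran FOSL1 (76.7 CPM per kb), JUN (42.5), JUND (30.3), JUNB (14.5), FOSL2 (12.3), MAFF (6.72), ATF3 (1.29), BATF3 (0.979), FOS (0.178) and FOSB (0.173). Only the last neighbours, FOS and FOSB, overlapped between their libraries. In the induced group it ran JUN (49.9 CPM per kb), JUNB (49.6), FOSL1 (28.7), JUND (27.8), MAFF (17.6), FOSL2 (3.15), ATF3 (1.53), FOS (0.735), FOSB (0.715) and BATF3 (0.455). There JUN and JUNB, FOSL1 and JUND, and FOS and FOSB overlapped. With either hairpin JUNB came first and JUN second, without overlap, while FOSL1 and JUND, and FOSB and FOS, overlapped in both and FOS and BATF3 also overlapped with shXPO7_5.

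The hairpin comparisons ask whether less XPO7 changes the induced cells, and both used the same 3 induced libraries. Of the 10 genes, 0 were called with shXPO7_3 (0.124% of all genes tested were called) and 0 with shXPO7_5 (0.589% of all genes). At an unadjusted p under 0.05 in edgeR there were 2 and 6 AP-1 genes, beside 6.41% and 21.6% of all genes tested. DESeq2 called 0 and 2 of them, and 88 and 426 genes in all. The point estimates were above 0 for 8 of 10 genes with shXPO7_3 and for 10 of 10 with shXPO7_5. The medians were 0.14 and 0.30 on the log2 scale, beside -0.00 and 0.01 over all genes tested. With a correction for GC content and length, described below, the median with shXPO7_5 was 0.12 and 8 of 10 estimates were above 0.

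JUNB came closest to a change with both hairpins. Against 87.8 to 92.0 CPM in the induced libraries it was at 124, 114 and 109 CPM with shXPO7_3 and at 116, 112 and 159 CPM with shXPO7_5. No hairpin library overlapped with an induced one, and shXPO7_5 replicate B was the highest of all. The log2 fold change was 0.35 with shXPO7_3 (standard error 0.116, 95% confidence interval 0.10 to 0.61, adjusted p = 0.475, edgeR). With shXPO7_5 it was 0.51 (standard error 0.116, 95% confidence interval 0.26 to 0.77, adjusted p = 0.0722, edgeR; range over all alternatives 0.00484 to 0.255, called in 5 of 15). The range for shXPO7_3 was 0.00307 to 0.978, with a call in 2 of 15.

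ATF3, at 6.15 to 6.27 CPM in the induced libraries, also stood higher in every hairpin library. It was at 7.44, 7.00 and 6.71 CPM with shXPO7_3 and at 8.09, 8.12 and 8.19 CPM with shXPO7_5. Its log2 fold changes were 0.19 (95% confidence interval -0.04 to 0.41, adjusted p = 0.938, edgeR) and 0.39 (95% confidence interval 0.17 to 0.62, adjusted p = 0.104, edgeR). JUND was at 59.1, 61.5 and 52.6 CPM with shXPO7_3, and at 64.3, 61.6 and 86.4 CPM with shXPO7_5. Only the shXPO7_5 libraries all stood above the 45.6 to 56.2 CPM of the induced ones, and again replicate B stood apart. The log2 fold changes of JUND were 0.16 (adjusted p = 0.999, edgeR) and 0.45 (adjusted p = 0.133, edgeR).

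The FOS family genes gave smaller or less steady differences. FOSL1 was at 54.7 to 63.6 CPM with shXPO7_3 and at 59.9 to 70.7 CPM with shXPO7_5, beside 53.2 to 55.4 CPM in the induced group. Its log2 fold changes were 0.11 (adjusted p = 0.999, edgeR) and 0.31 (adjusted p = 0.128, edgeR). FOSB was at 6.26, 4.65 and 5.46 CPM with shXPO7_3, above all induced libraries, and at 5.26, 4.26 and 5.02 CPM with shXPO7_5, which overlapped with them. The log2 fold changes of FOSB were 0.46 (95% confidence interval 0.07 to 0.85, adjusted p = 0.615, edgeR) and 0.29 (adjusted p = 0.315, edgeR). FOS was 0.31 higher with shXPO7_3 (adjusted p = 0.876, edgeR) and within 0.01 of the induced level with shXPO7_5 (95% confidence interval -0.35 to 0.37). FOSL2 differed by -0.04 and 0.14 on the log2 scale, with overlapping libraries in both.

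JUN differed by -0.13 and 0.07, MAFF by 0.06 and 0.24, and BATF3 by 0.07 and 0.50 on the log2 scale, with adjusted p-values from 0.194 to 0.999 (edgeR). Of these, only the BATF3 libraries with shXPO7_5, at 1.52 to 1.90 CPM, did not overlap with the induced ones, at 1.04 to 1.49 CPM. The number of calls with shXPO7_5 hung on single libraries. Without shXPO7_5 replicate A, 5 of the 10 genes were called, FOSL1, JUNB, JUND, ATF3 and MAFF, together with 3634 genes in all. Without replicate B of that group 0 were called, with log2 fold changes of 0.34 for JUNB, 0.29 for JUND and 0.14 for MAFF.

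Transcripts of several AP-1 genes are rich in G and C, and the libraries differed in their level of GC-rich transcripts. Among genes tested, the GC content of JUND transcripts stood at percentile 99.7 and that of JUNB at percentile 97.2, with MAFF, FOSL1, FOS and FOSB between percentiles 80.3 and 86.7. Over the genes tested, which do not count as independent replicates, log2 ratios to the induced mean correlated with GC content at a Spearman rho of 0.61, 0.12 and 0.79 in shXPO7_5 replicates T, A and B. For shXPO7_3 it was 0.58, -0.34 and -0.25, and for the induced libraries themselves -0.18, -0.21 and 0.32. The library with the strongest trend, shXPO7_5 replicate B, was also the one with the highest JUNB and JUND.

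**Figure D4:**
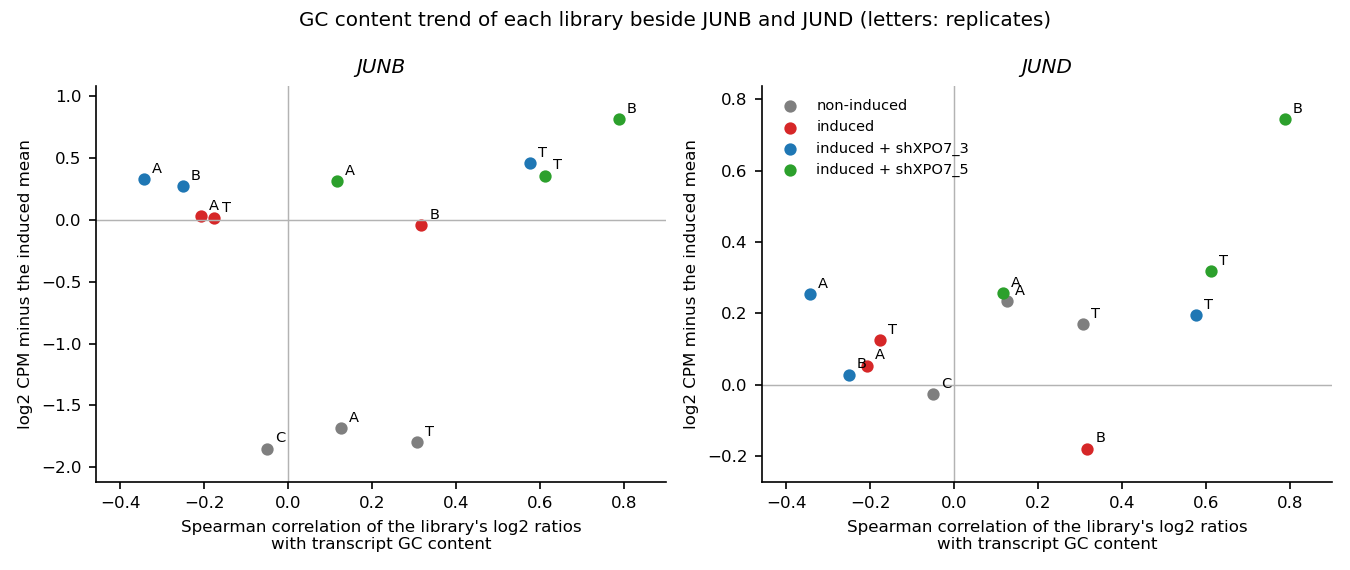
For each library, the Spearman correlation of its log2 ratios to the induced mean with transcript GC content (horizontal axis) beside the level of JUNB and JUND as log2 CPM minus the induced mean (vertical axis). All 6 hairpin libraries lie above the induced ones for JUNB, at GC trends from -0.34 to 0.79, while for JUND shXPO7_5 replicate B stands apart at 0.74.

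With a correction for GC content and length, JUNB was called with both hairpins, at log2 fold changes of 0.33 (adjusted p = 0.0095, edgeR) and 0.26 (adjusted p = 0.0256, edgeR), the latter down from 0.51. ATF3 was called with shXPO7_5 at 0.35 (adjusted p = 0.0254, edgeR). The correction also raised the number of genes called over all genes tested, from 19 to 382 with shXPO7_3 and from 90 to 503 with shXPO7_5. Differences of other AP-1 genes with shXPO7_5 shrank as well, that of JUND to 0.17 (adjusted p = 0.197, edgeR), of FOSL1 to 0.12 and of MAFF to 0.04. FOS and JUN turned to -0.16 and -0.08. In OIS the same correction left the called AP-1 genes called and added ATF3, at 0.36 (adjusted p = 0.00128, edgeR). It also raised the number of genes called in OIS over all genes tested, from 7777 to 9898.

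Tested directly, shXPO7_5 and shXPO7_3 differed in 0 of the 10 genes (0.0131% of all genes tested), with 3 AP-1 genes at an unadjusted p under 0.05 in edgeR (11.9% of all genes tested) and 0 called by DESeq2. The differences ran from -0.30 for FOS to 0.43 for BATF3 on the log2 scale. ATF3 and JUND libraries of shXPO7_5 were all higher than those of shXPO7_3, by 0.21 (95% confidence interval -0.02 to 0.43) and 0.30 (95% confidence interval 0.01 to 0.58), both with an adjusted p of 0.388 (edgeR). For JUND the groups barely parted, with the lowest shXPO7_5 library at 61.64 CPM and the highest shXPO7_3 library at 61.53 CPM. After correcting for GC content and length, JUND differed by 0.04 (95% confidence interval -0.11 to 0.18). For JUNB the difference was 0.16, with a 95% confidence interval from -0.09 to 0.41.

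Most genes known as AP-1 targets rose in OIS, in a list that, like the others below, was drawn up with earlier results of these data known. Of 30 textbook targets 29 were tested and 26 rose, where 24.8% of all genes tested were called higher. The laminin gene LAMB3, at -0.41, fell (26.1% of all genes were called lower), a call lost in 3 of 15 alternatives. The median log2 fold change was 1.70, beside -0.01 over all genes. The cytokine IL1B rose by 8.99, from 0.257 to 137 CPM, the chemokine CXCL8 by 7.65, from 2.25 to 457 CPM, and the protease MMP10 by 5.47 on the log2 scale. The growth factor AREG went from 0.0198 to 3.46 CPM. The collagenase MMP1, picked from the list after its values were seen, rose from 894 ± 27.3 to 4448 ± 189 CPM (SD, n = 3), or by 2.32 on the log2 scale (adjusted p = 4.46e-11, edgeR). The antioxidant gene HMOX1 (-0.15) was not called.

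**Figure D5:**
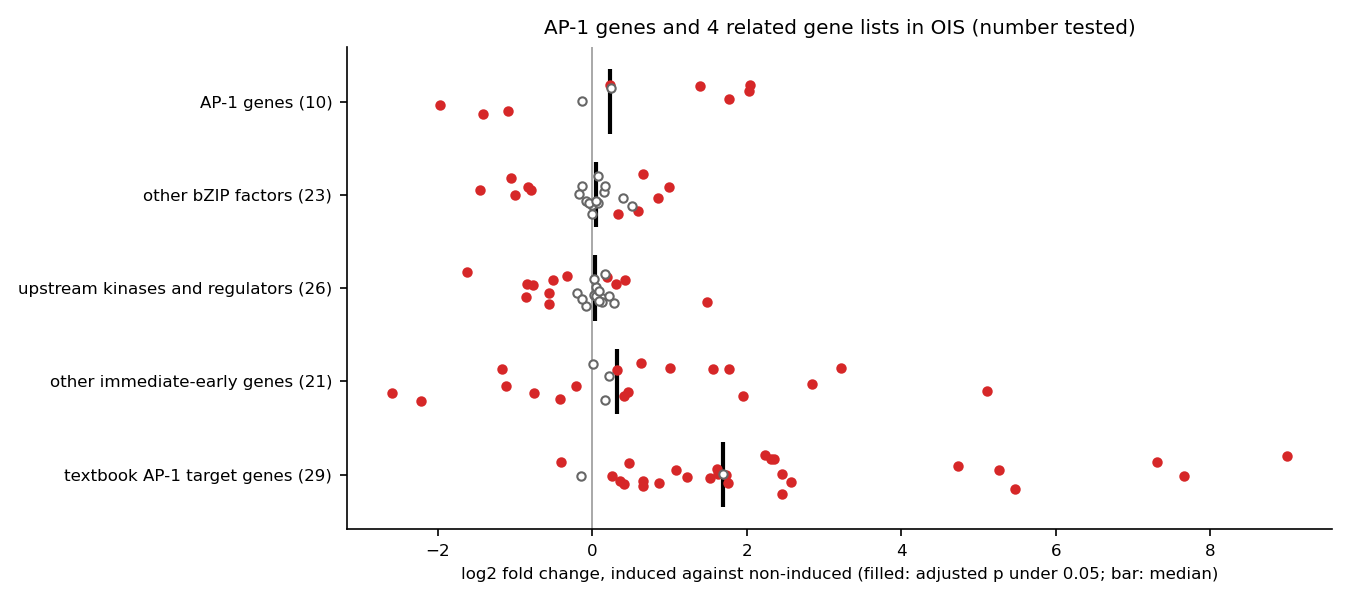
Log2 fold change in OIS (horizontal axis) of the 10 AP-1 genes and of 4 related lists; points are genes, filled where the adjusted p was under 0.05, and bars are medians. The AP-1 genes spread to both sides of 0 around a median of 0.24, while the target genes lie almost all to the right of it, around 1.70.

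Among 22 other immediate-early genes, of which 21 were tested, 11 rose (24.8% of all genes) and 7 fell (26.1% of all genes) in OIS, with a median of 0.33. The zinc-finger genes EGR3 and EGR2 rose by 5.11 and 3.22 and the stress-response gene IER3 by 2.85 on the log2 scale, while KLF4, a factor of differentiation, fell by 2.59. EGR1, at 1.77, rose by about as much as JUNB. Of 26 other bZIP genes 23 were tested, and 5 rose and 5 fell, with a median of 0.05. These 10 calls are near the 50.9% called over all genes. BACH2 (-1.45), NFIL3 (-1.05) and JDP2 (-0.996), which encode repressors, fell, and MAFK (0.85), a small MAF gene like MAFF, rose.

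Of 26 genes for kinases and regulators upstream of AP-1, 4 rose and 8 fell, with a median of 0.04, and these 12 calls are also near the 50.9% of all genes. The largest changes were in genes for ribosomal S6 kinases, RPS6KA2 (-1.62), RPS6KA3 (1.49) and RPS6KA4 (-0.85), and in MAPK10 (-0.85), which encodes a JUN kinase. MAPK8 (0.42), which encodes another JUN kinase, rose and MAPK3 (-0.32), which encodes ERK1, fell, both picked after their values were seen, and they lost the call in 1 and 2 of 15 alternatives. With shXPO7_3, 0 genes of these 4 lists were called in edgeR, and DESeq2 called 2 target genes. At an unadjusted p under 0.05 in edgeR there were 1 to 8 per list, beside 6.41% of all genes tested. With shXPO7_5, the called ones were NR4A2 (-0.70, adjusted p = 0.0132, edgeR), an immediate-early receptor gene, and PTGS2 (-0.83, adjusted p = 0.0132, edgeR), a target gene. Both calls were lost in 5 of 15 alternatives, the fit to only the groups compared and those without induced replicate T or A or shXPO7_5 replicate T or B (adjusted p up to 0.0862 for NR4A2 and 0.0856 for PTGS2, edgeR). DESeq2 called 6 immediate-early genes, 1 target and 1 other bZIP gene there. With shXPO7_5, 15 of the 21 tested immediate-early genes had an unadjusted p under 0.05 (edgeR), beside 21.6% of all genes tested. It was 9 of 29 for targets, 4 of 23 for other bZIP genes and 6 of 26 for kinases and regulators. The immediate-early genes had a median log2 fold change of 0.26, near the 0.30 of the AP-1 genes, both without the GC content and length correction. With it the AP-1 median was 0.12, and that of the immediate-early genes was not computed.

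By the root mean square difference of centred log2 CPM over the 12 libraries, the gene most like each AP-1 gene was SNED1 for FOS (0.16), IQSEC3 for FOSB (0.177), MCM7 for FOSL1 (0.0502), FZD7 for FOSL2 (0.0545) and GRIPAP1 for JUN (0.0435). It was HS3ST3A1 for JUNB (0.116), SSBP4 for JUND (0.0819), ANPEP for ATF3 (0.0804), SLC4A3 for BATF3 (0.137) and MSC for MAFF (0.0593). EGR1 was the second most like JUNB (0.127). These values describe 12 libraries in 4 groups, in which most of the spread lies between non-induced and induced. Between AP-1 genes themselves, the smallest differences were those of JUN and JUND (0.182) and of JUN and ATF3 (0.187). These genes changed little, with an SD over the libraries of 0.143 for JUN, 0.227 for JUND and 0.267 for ATF3. Their small differences therefore do not show a shared pattern. Among pairs that changed, FOS and JUNB (0.228) were most alike.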

How the data were processed

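The authors deposited raw counts of reads per gene, made per the labels from a stranded mRNA library kit. Builds hg19 and GRCh37 and the tools TopHat2 2.0.11, CASAVA 1.8.4 and featureCounts 1.18.0 stand in the processing notes of the submitters. The annotation, how strand was used and what was done with multi-mapping reads were not given in the sources used here, which leaves counts of overlapping genes uncertain. The 92 spike-in entries held 0 counts and were left out. Groups came from the labels. The tests were run with edgeR 4.0.16 in R 4.3.3 (filterByExpr, TMM scaling, quasi-likelihood test over all 12 libraries with the 4 groups, no covariate), with Benjamini-Hochberg adjustment across all 15284 tested genes and a threshold of 0.05. CPM are TMM-scaled, and lengths are union exon lengths from GENCODE release 29 on GRCh38, matched by Ensembl identifier only. Group differences of single genes also got an exact permutation test on log2(CPM + 0.1). With a chi-square of 4.57 to 61.7 per gene, replicate libraries differed beyond sampling noise. As alternatives, scaling by RLE or upper-quartile factors, keeping all genes with 1 count, a filter of 1 CPM in 6 libraries, a replicate block, a correction for GC content and length (97.3% of genes had a value), both together, DESeq2 1.42.0, a fit to only the groups compared, and each library left out were tried. The AP-1 genes and gene lists were chosen with earlier results of these data known. The named genes were the 10 AP-1 genes, per list up to 4 called genes with the largest change and an average log2 CPM of at least 1, the 2 genes most like each AP-1 gene, and XPO7. The fit was tested on simulated data.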

Additional observations from a re-analysis of the deposited data

Results flagged for a closer look

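The hairpins differed from each other in 2 of the genes followed here, by a direct test of the difference. PTGS2, an AP-1 target gene for a prostaglandin synthase, was lower with shXPO7_5 than with shXPO7_3 by a log2 difference of -0.95 (24.1 ± 3.84 against 46.4 ± 3.67 CPM, SD, n = 3 each, adjusted p = 0.0246, edgeR), in 3 of 3 libraries. XPO7 was higher with shXPO7_5 than with shXPO7_3 by 0.92 on the log2 scale (adjusted p = 0.000387, edgeR), also in 3 of 3 libraries. The call of PTGS2 was lost in 5 of 15 alternatives (adjusted p up to 0.533, edgeR), the fit to only the groups compared and those without shXPO7_3 replicate A or B or shXPO7_5 replicate T or B. That of XPO7 was lost in 1 of 15, the fit to only the groups compared (adjusted p = 0.114, edgeR). Groups of 3 libraries were not examined for single outlying values.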

How the results depend on the processing

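In OIS the directions of all 10 AP-1 genes held in 15 of 15 alternatives, as did the calls of FOS, FOSB, FOSL1, FOSL2, JUNB, BATF3 and MAFF, and 7 to 9 of the 10 were called with 1 library left out. Of the 150 fits of a single AP-1 gene against each hairpin, 3 reversed with shXPO7_3 and 6 with shXPO7_5, none of them on a called gene, and 2 and 12 gained a call. With shXPO7_3 the number of AP-1 genes called, 0, became 1 with the GC content and length correction, alone or with the replicate block. With shXPO7_5, also 0, it became 1 with no filter, 2 with that correction, 2 with it and the replicate block, and 2 in DESeq2, and ran from 0 to 5 with 1 library left out. All genes called with shXPO7_3, 19 (14 higher), became 8 with upper-quartile factors, 30 with no filter, 382 (239 higher) with the GC content and length correction, 481 with it and the replicate block, 88 in DESeq2, 2 in the fit to only the groups compared and 1 with any library left out. With shXPO7_5, 90 (73 higher) became 217 with no filter, 149 with the replicate block, 503 (351 higher) with the correction, 1040 with it and the block, 426 in DESeq2, 10 in the fit to only the groups compared and 2 to 3634 with 1 library left out. Between the hairpins 2 became 20, 32, 69 and 27 with no filter, the correction, the correction and block, and DESeq2, 0 in the fit to only the groups compared and 1 to 4 with 1 library left out. The list of kinases and regulators in OIS went from 12 called to 19 with the correction. All genes called in OIS also went up with it, from 7777 to 9898, so the 19 are not comparable with the uncorrected share of all genes. The cause of these shifts was not tested.

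Reversed values arose with the correction, alone and with the replicate block: for FOS (-0.16 and -0.15) and JUN (-0.0802 and -0.0799) with shXPO7_5, and for JUNB (-0.0626 and -0.0622) and MAFF (-0.0017 and -0.0012) between the hairpins. With 1 library left out, BATF3 with shXPO7_3 ran from -0.0837 to 0.25, FOSL2 with shXPO7_3 from -0.12 to 0.003, FOS with shXPO7_5 from -0.16 to 0.12 and JUNB between the hairpins from -0.0119 to 0.25. Over all alternatives, a comparison added after the data were seen, the calls of each of the 4 related lists stayed within 0 to 4 with shXPO7_3 and 0 to 14 with shXPO7_5 (the immediate-early genes, without shXPO7_5 replicate A). Replicate letters T and A are shared by all groups and B by those with 4OHT, while C is found only in the non-induced group. Deviations of same-letter libraries from their group means correlated at -0.23 to 0.59 in 15 pairs, 8 of them above 0.1. In 39 pairs with different letters it was -0.62 to 0.51. The labels do not state a pairing, and the main fit used none. The replicate block took the call of JUN in OIS (0.17, adjusted p = 0.111, edgeR) and no other AP-1 call. As C marks a single library, the block gave that library no weight in this estimate. Without non-induced replicate C, JUN was at 0.18 (adjusted p = 0.0967, edgeR). At 18 to 22 counts per library, FOS in the non-induced group was limited by depth.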
